A study of Homo sapiens with 6 samples.

Results

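The canonical histone genes are the genes of the HIST1, HIST2, HIST3 and HIST4 groups, which encode the linker histone H1 and the core histones H2A, H2B, H3 and H4. They were taken from the deposited count table by symbol, and 90 of its 54259 gene symbols belonged to them. The genes described here are the 19 of these 90 with 60 or more counts summed over all 6 libraries. The summed count of both groups was thus the value that chose them, and it is not a finding. They comprised 2 H1, 6 H2A, 7 H2B, 3 H3 genes and 1 H4 gene, 15 of them in the HIST1 group on chromosome 6 and 4 in the HIST2 group on chromosome 1. Of the other 71 histone rows, 42 were listed at 0 in every library and 29 had between 1 and 59 counts. In the gene annotation GENCODE 29, 19 of the 90 rows are pseudogenes, of which only HIST2H2BA is among the genes described here.

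RNA-Sequence was performed on MDA-MB-231 cells, an established human breast cancer cell line, and the comparison asks which transcripts differ when brachyury, a T-box transcription factor, is targeted. The MDA-MB-231 shBry group (3 libraries) carries a short hairpin RNA against brachyury and the MDA-MB-231 shNC group (3 libraries) carries a control hairpin; whether either line is 1 clone was not given in the sources used here. Libraries held between 19319411 and 22985371 counts, and nothing in the labels says that those of a group came from separate cultures, so that p-values measure only the spread between these samples, which may be technical. Brachyury, listed under its older symbol T, was listed at 0 counts in all 6 libraries (if its reads were counted at all, this allows up to 3 counts, between 0.131 and 0.155 CPM, counting error only), and the targeted gene therefore gives no check of the labels. The deposited design text names pericardial RNA in place of the cell line. Of 5 markers of MDA-MB-231 cells, none was at 0 and their summed level was 7528 to 7861 CPM (counts scaled to library size with TMM) in shNC and 6517 to 6742 in shBry, with VIM highest. CAV1 of this list was called lower (log2 fold change -1.11), and the other 4 were not called. Of 5 pericardial or mesothelial markers, UPK3B and WT1 were under 1 CPM in every library, and the sum was 40.2 to 42.1 CPM in shNC and 51.4 to 57.7 in shBry, mostly MSLN. CALB2 of the same list went the other way and was called lower (log2 fold change -2.52), with 11.1 CPM in shNC replicate 3 against 1.37 in each other shNC library. LRRN4, also of that list, was called higher (0.76). The sum of 5 cardiac muscle markers was at most 0.183 CPM, with MYH6, MYH7 and NPPA at 0. That of 5 luminal breast markers was at most 5.5 CPM, and of 5 leukocyte markers PTPRC and TYROBP were at 0 and LAPTM5 gave nearly the whole sum. Among the luminal markers, EPCAM was called higher (log2 fold change 1.47) and KRT19 lower (-1.80). The part of other cells in the histone values was not tested.

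Canonical histone genes are transcribed mainly while DNA is replicated, and they supply the histones that package the new DNA. Their mRNAs end in a short stem-loop in place of a poly(A) tail, and the stem-loop binding protein SLBP governs their processing, translation and decay. Some histone genes also give longer transcripts that pass the stem-loop and end in a poly(A) tail. Replication-independent variants are encoded elsewhere, mostly by genes with ordinary mRNAs. Whether the libraries were made from poly(A)-selected RNA was not given in the sources used here, and its part in the histone levels was not tested.

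The stem-loop was found in the GENCODE 29 transcripts of 7 of the 19 genes. It is shown because a transcript that runs on past it is the kind that can carry a poly(A) tail. Capitals mark the 16 bases of the stem-loop and small letters the 5 bases on each side, 5′ to 3′.
HIST1H3H: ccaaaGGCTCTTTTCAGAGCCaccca
HIST2H2BE: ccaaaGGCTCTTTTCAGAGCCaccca
HIST2H2BF: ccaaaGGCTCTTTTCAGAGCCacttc
HIST1H2AC: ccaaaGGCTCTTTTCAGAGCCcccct
HIST1H2BD: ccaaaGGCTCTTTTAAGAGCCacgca
HIST1H2BC: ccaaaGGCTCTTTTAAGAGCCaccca
HIST1H2AG: ccaacGGCTCTTTTCAGGGCCaccca
HIST1H3H, HIST2H2BE, HIST2H2BF and HIST1H2AC shared 1 stem-loop sequence, HIST1H2BD and HIST1H2BC shared another, and HIST1H2AG had a form of its own. After the stem-loop the annotated transcript ran on for 769 bases in HIST1H3H, 1729 in HIST2H2BE, 1479 in HIST2H2BF, 1128 in HIST1H2AC, 1761 in HIST1H2AG and 116 in HIST1H2BC. In HIST1H2BD it stopped after 39 bases, but a spliced transcript is annotated as well. Together with HIST2H2BA and HIST1H2BJ, which also have spliced transcripts, 9 of the 19 genes had a longer annotated transcript. The other 10 did not, and no stem-loop was found in their annotated transcripts. Their models are short, from 381 bases (HIST1H2BK) to 754 (HIST1H1E), so a stem-loop or longer end beyond the model could not be seen. RefSeq gives HIST1H2BK a span of 8566 bases.

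Promoters were matched in RefSeq (GRCh38.p14) for 15 of the 19 genes, all except HIST2H2BA, HIST1H2AH, HIST1H2BC and HIST1H4C, and were searched from 250 bases before to 50 bases after the start of the gene, on both strands, for 4 short motifs. The letters TATAAA (the TATA box) were present in 12 of the 15 (80%) and in 11.5% of all 35116 promoters of that length. CCAAT was present in all 15 (100%) and in 34.6% of all promoters. The octamer ATTTGCAT, which POU-domain factors bind, was present in 9 (60%) and in 1.77% of all promoters, and those 9 were all H2A or H2B genes. The windows of HIST1H2BJ and HIST1H2AG overlap, as do those of HIST2H2BE and HIST2H2AC. In each pair the same octamer was counted for both genes, so the 9 genes hold fewer separate sites. The letters AGGTGTGA, a T-box half-site, were in none of the 15 windows and in 0.98% of all promoters. The 250 bases before the start are shown for the 3 genes with the highest mean CPM, with the motifs in capitals.
HIST1H2BK: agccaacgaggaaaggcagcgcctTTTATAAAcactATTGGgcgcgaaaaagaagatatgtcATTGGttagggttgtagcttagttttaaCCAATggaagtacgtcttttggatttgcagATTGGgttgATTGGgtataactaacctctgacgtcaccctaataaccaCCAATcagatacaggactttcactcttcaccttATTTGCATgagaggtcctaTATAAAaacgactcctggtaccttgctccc
HIST2H2AC: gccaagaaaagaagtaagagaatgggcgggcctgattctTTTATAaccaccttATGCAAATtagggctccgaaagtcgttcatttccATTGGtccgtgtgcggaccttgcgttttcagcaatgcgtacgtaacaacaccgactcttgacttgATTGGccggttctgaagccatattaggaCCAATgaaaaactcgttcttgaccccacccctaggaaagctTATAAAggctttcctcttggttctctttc
HIST1H1C: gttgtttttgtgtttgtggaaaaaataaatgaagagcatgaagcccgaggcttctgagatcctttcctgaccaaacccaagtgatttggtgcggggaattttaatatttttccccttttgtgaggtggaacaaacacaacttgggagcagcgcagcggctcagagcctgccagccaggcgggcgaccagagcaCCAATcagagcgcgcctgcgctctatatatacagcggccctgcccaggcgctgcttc
These are chr6:27146856-27147105 on the minus strand for HIST1H2BK, chr1:149886668-149886917 on the plus strand for HIST2H2AC and chr6:26056471-26056720 on the minus strand for HIST1H1C. HIST1H2BK had 6 CCAAT boxes, an octamer that began at position -49 and a TATA box at -30, and 1 stretch from -226 that matched the TATA box on both strands with an overlap. HIST2H2AC had 3 CCAAT boxes and a TATA box at -29. It also matched the TATA box at -211 and the octamer at -197, both on the opposite strand. Those matches are the same bases as the TATA box at -30 and the octamer at -46 of its neighbor HIST2H2BE. HIST1H1C had 1 CCAAT box at -57, and neither TATAAA nor the octamer was found in its window. A match is a description of the letters and does not show that a factor binds there.

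Canonical histone genes made up a small part of the libraries, and their summed level overlapped between the groups. All 90 rows together had 8048 counts, of which the 19 genes held 92.6%. The summed level of the 90 rows was 66.7, 71 and 64.5 CPM in shNC replicates 1, 2 and 3 and 69.6, 49.7 and 59.1 CPM in shBry replicates 1, 2 and 3. The means were 67.4 ± 3.33 CPM in shNC and 59.5 ± 9.96 in shBry (SD, n = 3), a ratio of 0.882, and shBry replicate 1 lay inside the shNC range. HIST1H1C and HIST1H2BK alone held 60.4% of the counts, and without them the remaining 17 genes summed to 20.9 ± 2.59 CPM in shNC and 19.9 ± 3.45 in shBry. Within its group, shBry replicate 2 had the lowest level of 12 of the 19 genes and shNC replicate 3 that of 9. In bulk RNA, fewer cells that express histone genes and less histone mRNA per cell cannot be told apart.

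**Figure D1:**
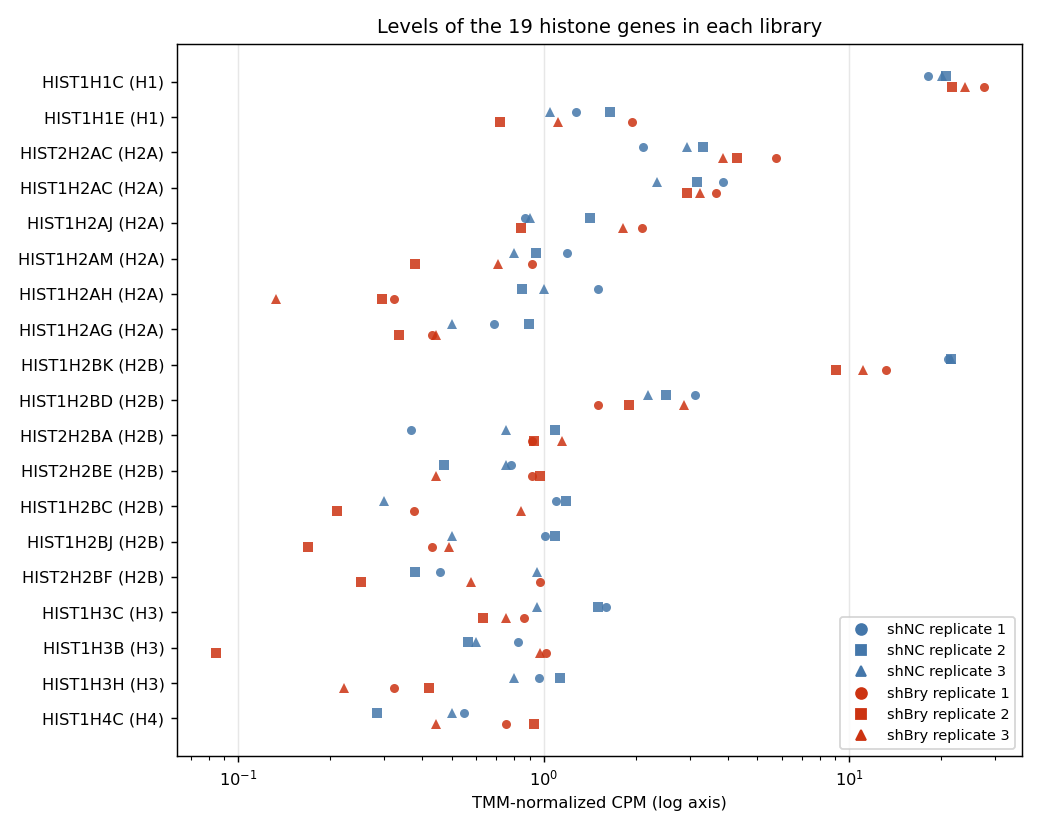
Level of each of the 19 histone genes in each library, in TMM-normalized CPM on a log axis, grouped by class, with blue for shNC and red for shBry and 1 symbol shape per replicate number. HIST1H1C and HIST1H2BK lie near 20 CPM in shNC, far to the right of the others, and HIST1H2BK, HIST1H2AH and HIST1H3H are among the genes with all red points to the left of the blue ones.

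The groups were compared with the quasi-likelihood test of edgeR over the 15277 genes that passed its filter on low counts. Its p-values were adjusted by the method of Benjamini and Hochberg, and a call needed an adjusted p under 0.05 together with more than 1.5-fold change. SE is the standard error on the log2 scale. All 19 genes passed the filter. Of them, 6 were called (31.6%), close to the 32.4% called over all tested genes, so the count is not a result about histone genes. HIST2H2AC was called higher in shBry, against 17.1% of all tested genes, and HIST1H2BK, HIST1H2AH, HIST1H3H, HIST1H2BJ and HIST1H3C were called lower, against 15.2%. Of the 5 called lower, HIST1H2AH, HIST1H3H and HIST1H2BJ reached 60 counts only through their shNC libraries, as did HIST1H2AG, and HIST1H4C reached 60 only through shBry. Without these 5 genes, 2 of 14 were called lower and 1 higher (a check added after the data were seen). Without a limit on the fold change, 7 of the 19 had an adjusted p under 0.05, against 53.3% of all tested genes. The 3 values of each group did not overlap in 8 of the 19 genes, against 59.5% of all tested genes. The median log2 fold change was -0.11 for the 19 genes and 0.03 for all tested genes, with 11 of the 19 below 0. Without the 5 genes that reached 60 counts only through 1 group, the median was 0.00, with 7 of 14 below 0 and 7 above. Those 5 genes had a median of -1.27, with 4 below 0. The standard error followed the counts. It was between 0.12 and 0.39 for the 10 genes with 100 or more counts and between 0.41 and 0.58 for the other 9. By transcript, 2 of the 9 genes with a longer annotated transcript were called lower (median -0.31), and of the 10 without one 3 were called lower and 1 higher (median -0.04). By group, the 15 HIST1 genes held all 5 called lower (median -0.58) and the 4 HIST2 genes the 1 called higher (median 0.33). The 5 genes that reached 60 counts only through shNC or only through shBry are all HIST1 genes. The HIST1 values thus rest in part on the choice by counts. Neither the difference by transcript nor that by group was tested. At the edge of the choice by counts, HIST1H2AG lay just inside with 70 counts, and HIST1H4H just outside with 58, of which shNC had 4, 3 and 4 and shBry 13, 16 and 18.

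**Figure D2:**
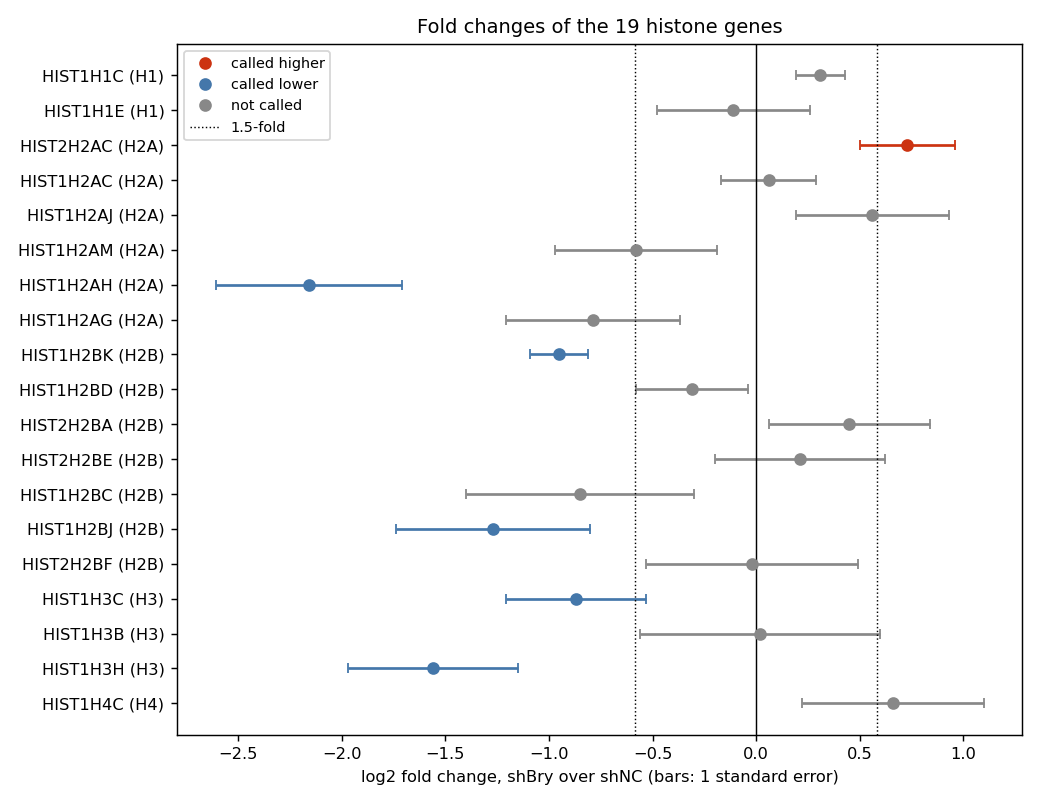
Log2 fold change of shBry over shNC for the 19 histone genes, with bars of 1 standard error from the edgeR fit, dotted lines at a fold change of 1.5, and colors for genes called higher (red), lower (blue) or not called (gray). HIST1H2AH has the lowest value (-2.16) and HIST2H2AC the highest (0.73).

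The linker histone H1 binds the DNA between nucleosomes. HIST1H1C, on the minus strand of chromosome 6 (GRCh38, 26055787 to 26056428), is an intronless protein-coding gene and the higher of both H1 members, also per kilobase. It had 18.1, 20.8 and 20.1 CPM in shNC replicates 1, 2 and 3 and 27.6, 21.7 and 23.9 in shBry. All shBry values lay above all shNC values, with means of 19.7 ± 1.37 CPM and 24.4 ± 2.97 (SD, n = 3). The log2 fold change was 0.31 (SE 0.12, edgeR adjusted p = 0.046), under the fold change limit, so HIST1H1C was not called. With 1 library left out in turn its edgeR adjusted p reached 0.19 and the log2 fold change lay between 0.21 and 0.37. None of its 50-base stretches occurred in transcripts of other genes. HIST1H1E, the other H1 gene, had 1.28, 1.65 and 1.05 CPM in shNC and 1.94, 0.717 and 1.11 in shBry, so the groups overlapped (log2 fold change -0.11, SE 0.37, edgeR adjusted p = 0.81). HIST1H1B and HIST1H1D, a further pair of H1 genes of dividing cells, were listed at 0 in all 6 libraries.

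Histone H2A forms a dimer with H2B at the outer faces of the nucleosome. HIST2H2AC, on chromosome 1 from 149886975 to 149887364 on the plus strand, was called higher and HIST1H2AH was called lower in shBry, and the other 4 H2A genes were not called. HIST2H2AC had 2.11, 3.31 and 2.95 CPM in shNC and 5.76, 4.3 and 3.86 in shBry, without overlap. The mean rose from 2.79 ± 0.617 to 4.64 ± 0.996 CPM (SD, n = 3), and its log2 fold change was 0.73 (SE 0.23, edgeR adjusted p = 0.016). The call rested on single libraries, since the log2 fold change was 0.55 both without shBry replicate 1 (edgeR adjusted p = 0.069) and without shNC replicate 1 (edgeR adjusted p = 0.082). Of its 50-base stretches, 30.5% also occur in transcripts of other genes, among them HIST2H2AB, HIST2H2AA3 and HIST2H2AA4, so reads could have been split among these copies.
HIST1H2AH, on chromosome 6 from 27147129 to 27147515 on the plus strand, had the lowest log2 fold change of the 19 genes, and it reached 60 counts only through shNC, where it is high. Its counts were 33, 18 and 20 in shNC and 6, 7 and 3 in shBry. Every shBry library was below every shNC library, and the mean went from 1.12 ± 0.346 to 0.25 ± 0.103 CPM. The log2 fold change was -2.16 (SE 0.45, edgeR adjusted p = 0.001) and lay between -2.36 and -1.85 with 1 library left out in turn, with the call kept in all 6 fits. HIST1H2AC, the second H2A gene by mean CPM, had 3.85, 3.17 and 2.35 CPM in shNC and 3.66, 2.95 and 3.24 in shBry. Its groups overlapped (log2 fold change 0.06, SE 0.23, edgeR adjusted p = 0.83). HIST1H2AJ had 0.871, 1.42 and 0.901 CPM in shNC and 2.1, 0.843 and 1.82 in shBry, with shBry replicate 2 below the shNC values and the other shBry libraries above them. It was not called (log2 fold change 0.56, edgeR adjusted p = 0.22), but it was without shBry replicate 2 (0.86, edgeR adjusted p = 0.034), and 83.7% of its 50-base stretches are shared with other genes. HIST1H2AM (log2 fold change -0.58) and HIST1H2AG (-0.79) were not called, at edgeR adjusted p of 0.23 and 0.13. HIST1H3J covers 88% of the exon bases of HIST1H2AM, so those counts are uncertain.

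Histone H2B genes carried the largest difference in level. HIST1H2BK, an intronless protein-coding gene in GENCODE 29 on chromosome 6 from 27146418 to 27146798 on the minus strand, had 458, 457 and 431 counts in shNC and 245, 215 and 251 in shBry. In CPM these were 21, 21.6 and 21.6 in shNC and 13.2, 9.06 and 11.1 in shBry, so that the shNC libraries lay close together and all shBry libraries far below them. The mean fell from 21.4 ± 0.353 to 11.1 ± 2.06 CPM (SD, n = 3), and its log2 fold change was -0.95 (SE 0.14, edgeR adjusted p = 6.9e-05). It kept the call with each library left out, between -1.09 and -0.83. The gene is uncertain in another respect, since 74.1% of its 50-base stretches occur in transcripts of 10 other genes, such as H2BFS, HIST1H2BE and HIST1H2BO. RefSeq gives the gene a span of 8566 bases where GENCODE 29 gives 381.
The other H2B genes were at lower levels. HIST1H2BJ, from 27125897 to 27132750 on the minus strand of chromosome 6, likewise reached 60 counts only through shNC and had 1.01, 1.09 and 0.501 CPM in shNC and 0.431, 0.169 and 0.488 in shBry. The groups did not overlap, but shNC replicate 3 lay next to the shBry values. The log2 fold change was -1.27 (SE 0.47, edgeR adjusted p = 0.035), and the gene was not called without shBry replicate 2 (-0.92, edgeR adjusted p = 0.11), shNC replicate 1 (-1.15, edgeR adjusted p = 0.11) or shNC replicate 2 (-1.10, edgeR adjusted p = 0.14), nor with DESeq2 (adjusted p = 0.082). HIST1H2BD had 3.12, 2.51 and 2.2 CPM in shNC and 1.51, 1.9 and 2.88 in shBry, with shBry replicate 3 inside the shNC range (log2 fold change -0.31, SE 0.27, edgeR adjusted p = 0.36). HIST2H2BA, a transcribed pseudogene, had 0.367, 1.09 and 0.751 CPM in shNC and 0.915, 0.927 and 1.15 in shBry, and was not called (0.45, edgeR adjusted p = 0.36). HIST2H2BE (0.21), HIST1H2BC (-0.85) and HIST2H2BF (-0.02) were not called either, at edgeR adjusted p of 0.69, 0.21 and 0.97.

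Histone H3 pairs with H4 at the core of the nucleosome, and the 3 H3 genes of HIST1 encode the same protein. HIST1H3H, on chromosome 6 from 27810064 to 27811300 on the plus strand, is another gene that reached 60 counts only through shNC, and it had 21, 24 and 16 counts in shNC and 6, 10 and 5 in shBry. All shBry libraries were below all shNC libraries, with means of 0.966 ± 0.167 CPM in shNC and 0.322 ± 0.0999 in shBry (SD, n = 3). The log2 fold change was -1.56 (SE 0.41, edgeR adjusted p = 0.0051), and the call was kept with each library left out, between -1.84 and -1.35. HIST1H3C, from 26045411 to 26045821 on the plus strand, had 1.6, 1.51 and 0.952 CPM in shNC and 0.861, 0.632 and 0.754 in shBry. The groups did not overlap, and shNC replicate 3 was again nearest to shBry. Its log2 fold change was -0.87 (SE 0.34, edgeR adjusted p = 0.042). That call was kept in 1 of 6 fits with a library left out, the fit without shNC replicate 3 (-1.09, edgeR adjusted p = 0.023). It was lost without shBry replicate 1, 2 or 3 (-0.97, -0.77 and -0.87, edgeR adjusted p = 0.051, 0.099 and 0.085) and without shNC replicate 1 or 2 (-0.73 and -0.80, edgeR adjusted p = 0.16 and 0.13). It was also lost with DESeq2 (adjusted p = 0.1) and limma-voom (adjusted p = 0.054). HIST1H3B had 18, 12 and 12 counts in shNC and 19, 2 and 22 in shBry. The shBry libraries lay on both sides of the shNC values, with replicate 2 lowest, and no difference was detectable at this depth (log2 fold change 0.02, SE 0.58, edgeR adjusted p = 0.98). No 50-base stretch of the 3 H3 genes occurs in other transcripts.

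Most histone H4 genes encode the same protein, and HIST1H4C was the H4 gene with 60 or more counts. It had 12, 6 and 10 counts in shNC and 14, 22 and 10 in shBry, and the groups overlapped (log2 fold change 0.66, SE 0.44, edgeR adjusted p = 0.22). Its mean was 0.445 ± 0.142 CPM in shNC and 0.708 ± 0.245 in shBry.

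Summed over all rows of a class, H2B and H3 had lower means in shBry, H1 and H4 higher means, and H2A nearly the same mean. H2B summed to 29.6, 29.7 and 29 CPM in shNC and 19.9, 14.2 and 18.5 in shBry, a ratio of 0.595 between the means without overlap. The H2B members other than HIST1H2BK summed to 6.33 ± 0.759 CPM in shNC and 5.31 ± 0.993 in shBry, with overlap, so most of the class difference was HIST1H2BK. H3 summed to 4.58, 4.54 and 2.65 CPM in shNC and 2.8, 1.64 and 2.31 in shBry (ratio 0.573), and shNC replicate 3 lay among the shBry values. H1 had 19.5, 22.5 and 21.2 CPM in shNC and 29.6, 22.5 and 25.1 in shBry (ratio 1.22), nearly all of it HIST1H1C. H2A had 11.5, 12.2 and 9.77 CPM against 13.9, 9.32 and 10.9 (ratio 1.02). H4 had 1.42, 2.08 and 1.8 CPM against 3.39, 2.02 and 2.26 (ratio 1.45), of which HIST1H4H and HIST1H4C gave a large part in shBry. The sums were not tested.

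**Figure D3:**
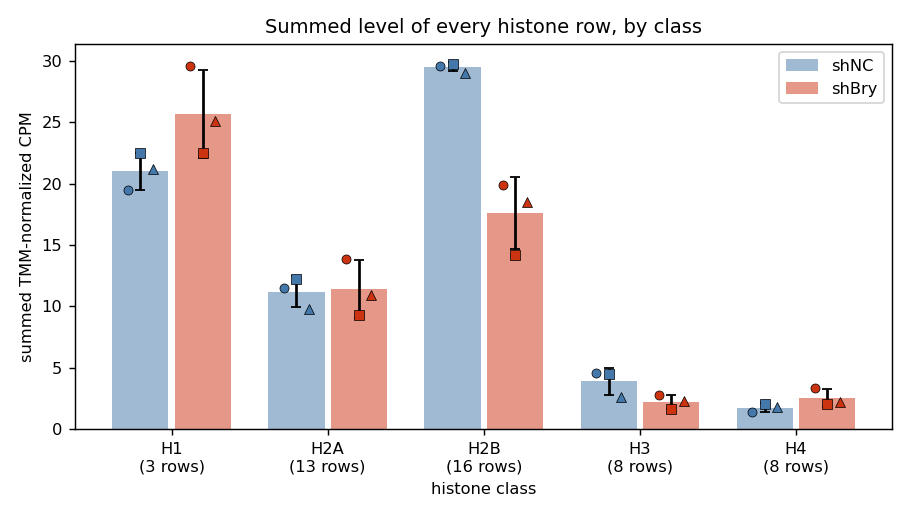
Summed TMM-normalized CPM of all rows of each histone class, with bars for the mean, error bars of 1 SD (n = 3) and a point per library, and with the number of rows that had any counts in brackets. H2B is the class whose shNC values (29 to 29.7) and shBry values (14.2 to 19.9) lie farthest apart. Those of H2A, H3 and H4 overlap, and those of H1 meet at 22.5.

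Levels of different genes were compared per kilobase of exon in GENCODE 29, a scale that holds only as far as the authors' gene models have the same length. In shNC, HIST1H2BK had 56.1 CPM per kilobase, HIST1H1C 30.6 and HIST2H2AC 7.16, and all others lay between 0.186 (HIST2H2BF) and 3.3 (HIST1H3C). In shBry, HIST1H1C came first with 38.1 CPM per kilobase, then HIST1H2BK with 29.2 and HIST2H2AC with 11.9, and all others lay between 0.179 (HIST1H2AG) and 4.1 (HIST1H2AJ). On the same scale the linker variant H1F0 had 258 in shNC and 607 in shBry, and the H2A variant H2AFZ had 141 and 130.

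H2A and H2B genes often lie head to head and share the stretch between their starts. Among the 19 genes were 4 such pairs, named here for their position. HIST1H2BK and HIST1H2AH, with 330 bases between them, had log2 fold changes of -0.95 and -2.16, and both were called lower. HIST1H2BJ and HIST1H2AG (291 bases) had -1.27 and -0.79, and HIST1H2BJ was called. Of these genes, HIST1H2AH, HIST1H2BJ and HIST1H2AG were among the 19 only through their shNC libraries, where they are high. HIST1H2BC and HIST1H2AC (218 bases) had -0.85 and 0.06, neither called. HIST2H2BE and HIST2H2AC (322 bases) had 0.21 and 0.73, and HIST2H2AC was called higher. Whether a pair differed within itself was not tested.

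Many coding histone genes, 29 in all, were listed at 0 in every library. So were 28741 of all 54259 gene symbols, coding or not, against 42 of the 90 histone rows. On the map most of the 29 lay in runs, while some, such as HIST1H1A and HIST2H4A, stood alone. In the HIST1 group, 15 adjacent coding genes from HIST1H4D to HIST1H2BI, between 26188765 and 26273356 on chromosome 6, were listed at 0, with HIST1H2BE (3 counts) before them and HIST1H4H (58 counts) after them. A further run of 4 genes from HIST1H2AL to HIST1H4L, between 27865355 and 27873510, was listed at 0 between HIST1H2AK (15 counts) and HIST1H3J (16 counts). On chromosome 1, TRIM17 and all 3 coding HIST3 genes, between 228407940 and 228460470, were listed at 0, while their neighbors TRIM11 and RNF187 had 8070 and 17505 counts. A value of 0 here says only that the table lists none, and how these rows came to 0 was not tested.

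**Figure D4:**
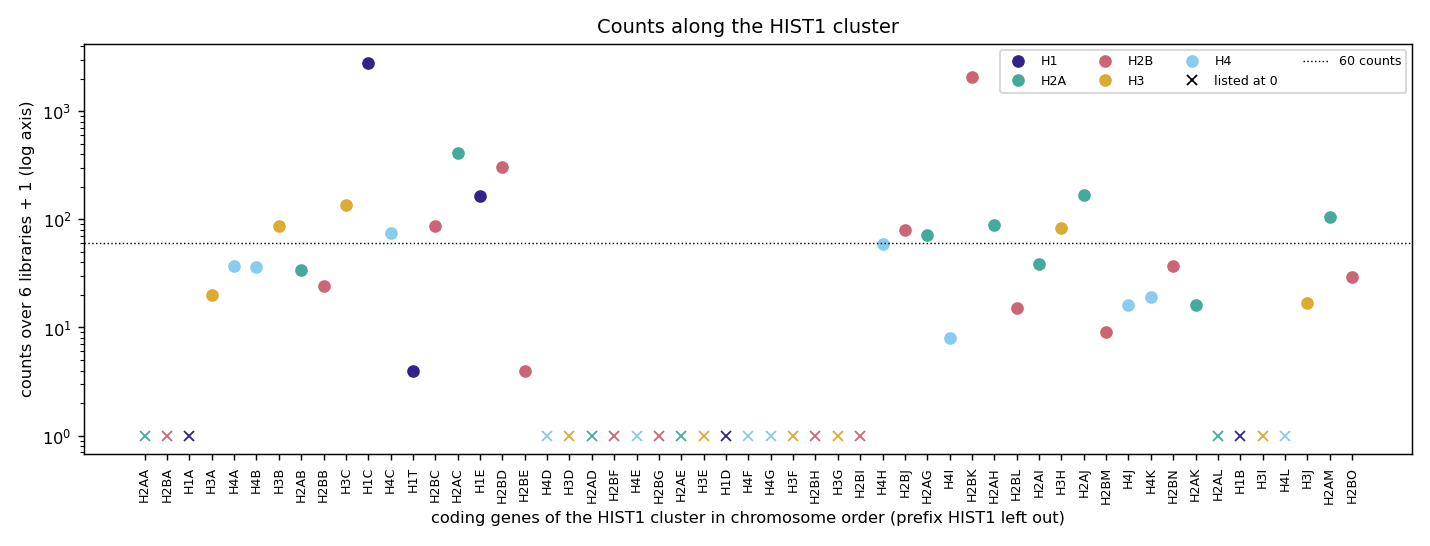
Counts over the 6 libraries, plus 1, on a log axis for the coding genes of the HIST1 group in chromosome order, colored by histone class, with crosses for genes listed at 0 and a dotted line at 60 counts. A run of 15 crosses stands between HIST1H2BE and HIST1H4H, and HIST1H1C and HIST1H2BK stand far above all others.

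Of 20 tested genes of histone gene transcription and 3′ processing, 2 were called higher, 3 lower and 15 not, with a median log2 fold change of 0.08. The called share was 25%, against 32.4% of all tested genes, so the count is not a result about these factors. SLBP, which binds the stem-loop shown above, fell from 102 ± 6.53 to 65.9 ± 3.24 CPM (SD, n = 3), and its log2 fold change was -0.63 (SE 0.09, edgeR adjusted p = 2.7e-05). SRRT, a partner of the cap-binding complex, fell from 144 ± 7.4 to 70.9 ± 2.53 CPM (-1.02, edgeR adjusted p = 1.4e-07). ZNF473, a zinc finger protein of histone pre-mRNA processing, rose from 21.7 ± 1.29 to 36.9 ± 2 CPM (0.77, edgeR adjusted p = 3.1e-05). The remaining called genes were LSM11, of the small nuclear RNP that cuts histone pre-mRNA, with -0.61, and POU2F1, which binds the octamer, with 0.66. NPAT, the coactivator of histone genes, was not called (-0.13, edgeR adjusted p = 0.61); it, LSM11 and POU2F1 were named after their values were seen.

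Histone chaperones, which carry histones to DNA, were called in 1 direction. Of 22 tested chaperone and assembly genes, 11 (50%) were called lower and 0 higher, against 15.2% and 17.1% of all tested genes, with a median log2 fold change of -0.57, and in 1 of the 11, HAT1, the groups overlapped. ASF1B, a chaperone of H3 and H4, fell from 105 ± 5.7 to 37.4 ± 0.34 CPM (SD, n = 3), and its log2 fold change was -1.50 (SE 0.08, edgeR adjusted p = 5e-09). CHAF1A, a subunit of the assembly factor CAF-1, fell from 139 ± 5.57 to 52.1 ± 3.16 CPM (-1.42, edgeR adjusted p = 8.3e-09). TONSL, a reader of newly made H4, fell from 157 ± 15 to 69.8 ± 2.99 CPM (-1.17, edgeR adjusted p = 1e-07). All 14 genes of the replication core (MCM helicase, polymerases and their partners) were called lower, with log2 fold changes between -2.49 and -0.70 and a median of -1.52. The smallest adjusted p were those of MCM5 (-2.49), LIG1 (-2.02) and MCM4 (-1.69). The median of the 19 histone genes was -0.11, and it lay between -0.52 and 0.05 under the alternatives. Of these 19, the 9 with under 100 counts had standard errors of 0.41 or more, against at most 0.12 in the replication core. The difference between the lists was not tested.

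Of 11 tested genes listed as replication-independent histone variants, 3 were called higher and 4 lower, against 17.1% and 15.2% of all tested genes. Of the rest, H1FX, H2AFZ, H2AFY and H2AFJ were not called, and H2AFY2 was listed at 0. H1F0, a linker histone of cells that have stopped dividing, rose from 604 ± 14.8 to 1423 ± 61.7 CPM (SD, n = 3), and its log2 fold change was 1.24 (SE 0.08, edgeR adjusted p = 1.1e-08). H3F3B, a gene of the replacement H3, rose from 372 ± 32.4 to 697 ± 33.6 CPM (0.91, edgeR adjusted p = 7.4e-07). H3F3A, which encodes the same protein, fell from 23.9 ± 2.61 to 13.6 ± 1.39 CPM (-0.81, edgeR adjusted p = 0.00012). H3F3C, a close copy of H3F3B, rose from 0.657 ± 0.252 to 1.42 ± 0.375 CPM (1.10, edgeR adjusted p = 0.023), and how far reads of these copies were split was not measured. H2AFX, the variant marked at DNA breaks, fell from 205 ± 21.1 to 96.1 ± 10.9 CPM (-1.10, edgeR adjusted p = 7.2e-07). CENPA, the H3 variant of centromeres, fell from 26.5 ± 1.93 to 11.7 ± 0.713 CPM (-1.18, edgeR adjusted p = 1.8e-06), and H2AFV from 115 ± 2.5 to 73.1 ± 3.5 CPM (-0.65, edgeR adjusted p = 1.1e-05).

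**Figure D5:**
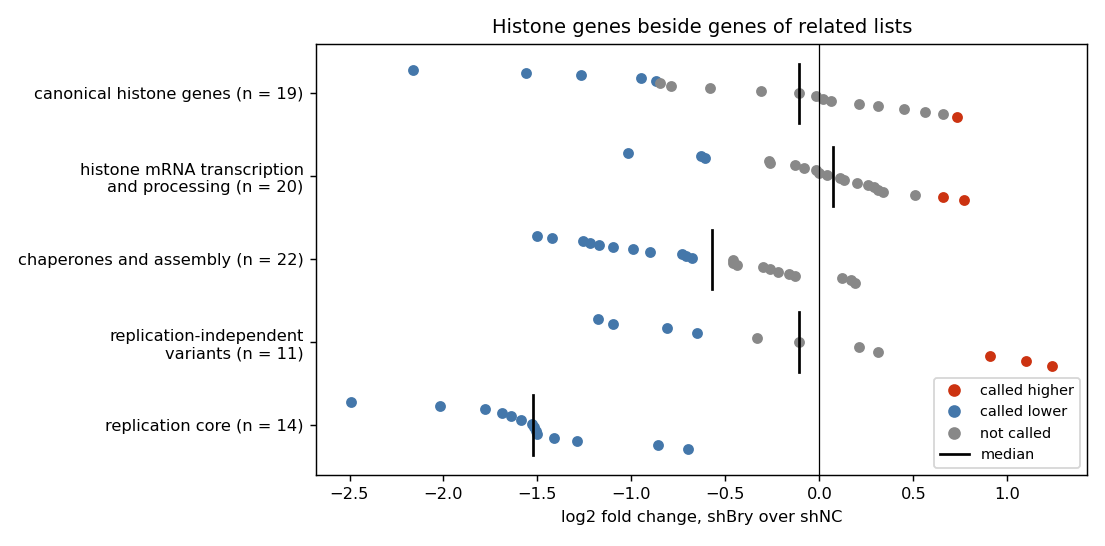
Log2 fold change of shBry over shNC for each tested gene of the canonical histone genes and 4 related lists, with red and blue points for genes called higher and lower, gray points for genes not called and a black line at each median. The replication core lies wholly below 0 (median -1.52), while the canonical histone genes lie on both sides (median -0.11).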

How the data were processed

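RNA of MDA-MB-231 shBry and shNC cells (3 libraries each) was sequenced by the authors, who deposited raw counts per gene symbol. Per the submitters' processing notes, HISAT2 2.0.4, HTSeq and GRCh38 were used. The annotation, strand setting and poly(A) selection were not given in the sources used here, so copies and overlapping genes may have lost or shared reads. Samples were grouped by their labels.

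The filter filterByExpr (minimum count 10), TMM scaling and the quasi-likelihood test were run on the deposited whole table with edgeR 4.0.16 (R 4.3.3), with Benjamini-Hochberg adjustment. Calls needed an adjusted p under 0.05 and over 1.5-fold change, the study's limit. The standard error is the log2 fold change divided by the square root of F. The fit was tested on simulated data. Libraries of a group differed by more than sampling noise (chi-square per degree of freedom 5 to 16.8).

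Members and lists were chosen with earlier results of these data known, so lists are described by counts and medians. Named genes were the 3 highest members of each class, the called members with the largest changes (up to 5 each way), the 3 smallest adjusted p of each other list, and the called variants. HIST1H2AM, HIST1H2AG, HIST2H2BE, HIST1H2BC and HIST2H2BF were added so that each member is accounted for. All 90 symbols matched GENCODE 29. Shared sequence is the share of 50-base stretches found in other genes' transcripts. Alternatives were total counts without TMM, DESeq2 1.42.0, limma-voom (limma 3.58.1), other filters, fold limits and member thresholds, unadjusted p, members without shared or overlapping sequence, a replicate block, and each library left out.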

Additional observations from a re-analysis of the deposited data

How the results depend on the processing

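Of the 19 genes, 5 were called lower and 1 higher, with a median log2 fold change of -0.11. Over all tested genes, 4945 of 15277 were called in either direction (32.4%). The number called lower was 3 with DESeq2, with the replicate block and at a fold limit of 2, and 2 with at least 10 counts in every library (9 genes tested), among members with 120 or more counts, and among members that would pass at the level of their lower group (chosen after seeing the data). The number called higher was 0 at a fold limit of 2, and 2 with no fold limit. Among members with 30 or more counts without the filter (28 tested), 7 were called lower and 2 higher. In that fit 5334 of 25518 tested genes were called in either direction. HIST1H2AB, HIST2H2BC and HIST1H4H, called in it, would not have reached 30 counts at the level of their lower group. Of all tested genes, 4632 of 15277 were called with DESeq2 and 4914 of 15277 with the replicate block. With at least 10 counts in every library, 4432 of 13859 were called. The median was 0.05 with at least 10 counts in every library and -0.34 with limma-voom. It was 0.00 among members that would pass at the level of their lower group. With each library left out in turn, 3 to 5 genes were called lower, 0 to 2 higher, and the median lay between -0.52 and -0.02. Of all tested genes, 4587 to 5025 were called in these fits. HIST1H2BK, HIST1H2AH and HIST1H3H were called in all 6 of these fits. HIST1H2AH and HIST1H3H, unlike HIST1H2BK, were among the 19 only through their shNC libraries, where they are high. The 19 genes were the same in each fit, so these fits do not test that choice. Fewer members or a higher limit make fewer calls by construction, and the other causes were not tested.

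Of 218 values of single genes under 12 alternatives, 186 kept direction and side of the threshold, 15 lost the call, 1 gained it and 16 changed sign, all 16 in genes not called. HIST1H3B had -0.58 with limma-voom, -0.003 with no filter, -0.11 with the replicate block, -0.005 without TMM, and between -0.36 and 0.56 with each library left out. In those fits HIST1H1E lay between -0.55 and 0.16, HIST1H2AC between -0.13 and 0.24, HIST2H2BE between -0.02 and 0.50, and HIST2H2BF between -0.52 and 0.44.

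Same-numbered libraries did not all deviate together (r = 0.514, -0.316 and -0.108 across 9316 genes for replicates 1, 2 and 3), so the numbers are not taken as pairs. With the replicate block, HIST1H3C (-0.84, adjusted p = 0.063 in edgeR) and HIST1H2BJ (-1.25, adjusted p = 0.054 in edgeR) were not called. Depth limits the 9 genes under 100 counts, whose standard errors were 0.41 or more.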

Other observations

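Histone rows under 60 counts summed to 5.44 ± 0.636 CPM in shNC and 4.02 ± 1.52 in shBry (SD, n = 3), from 343 and 253 counts. Among them, picked after their values were seen, HIST1H2AB had 7, 13 and 9 counts in shNC and 0, 0 and 4 in shBry, and HIST2H2BC had 12, 7 and 6 in shNC and 1, 1 and 4 in shBry. HIST1H4H went the other way, with 11 counts over the shNC libraries and 47 over the shBry libraries. In a fit of the whole table without the filter on low counts, among the 28 histone rows with 30 or more counts, HIST1H2AB and HIST2H2BC were called lower and HIST1H4H higher (edgeR). At the level of their lower group these rows would not have reached 30 counts. That group is shBry for HIST1H2AB and HIST2H2BC and shNC for HIST1H4H. Their calls are therefore no further support for a difference.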
